A study of Mus musculus with 4 samples.

Results

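Cortical interneurons are the inhibitory nerve cells of the cerebral cortex, and 10 genes that define them or their main classes were followed in RNA of bead-sorted cortical cells: Gad1, Gad2, Slc32a1, Pvalb, Sst, Vip, Npy, Calb1, Calb2 and Reln. The genes were taken by name, and all 10 were found among the 29224 genes of the deposited tables. Cells of P5 mouse cerebral cortex were pulled out with magnetic beads against GLAST (ACSA-1), a glutamate transporter of the astrocyte surface. There were 2 libraries from Ezh2 f/f mice, which carry Ezh2 alleles flanked by loxP sites and no stated Cre, and 2 from Ezh2 cKO mice, which carry the same alleles together with Aldh1l1-Cre. Cre is driven by the astrocyte gene Aldh1l1, so that the deletion was directed at astrocytes and not at interneurons. No source states how many animals gave a library and the p-values therefore measure the spread between these libraries, which may be technical. A positive log2 fold change means a higher level in Ezh2 cKO.

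As background, interneurons make GABA from glutamate with glutamate decarboxylases (Gad1, Gad2) and load it into synaptic vesicles with the transporter encoded by Slc32a1. Most are born in the ventral forebrain under transcription factors such as DLX1, DLX2 and LHX6, migrate into the cortex before birth, and acquire the peptides and calcium-binding proteins of their class at different times, with parvalbumin known as a late one in mouse cortex. Several of the genes are not private to interneurons: Calb1 is also expressed in some pyramidal and striatal neurons, and Reln and Calb2 in Cajal-Retzius cells, a transient population of the cortical surface.

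Promoter sequence was available from RefSeq (GRCm38.p6) for 8 of the 10 genes, as 9 windows of 300 bases that run from 250 bases before to 50 bases after an annotated start, since Pvalb has 2 starts. CG dinucleotides were counted because Polycomb proteins, to which EZH2 belongs, are known to gather at CG-rich promoters. The stretches below run from base 170 to base 51 before the start of the gene that rose most (Vip), a gene that passed no threshold (Npy) and the only gene that fell (Reln), 5′ to 3′ on the gene's strand, with CG in capitals. They lie at chr10:5639048-5639167 (plus strand), chr6:49822540-49822659 (plus strand) and chr5:22344756-22344875 (minus strand).
Vip: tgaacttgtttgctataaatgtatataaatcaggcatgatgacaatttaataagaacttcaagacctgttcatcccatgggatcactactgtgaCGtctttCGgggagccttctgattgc
Npy: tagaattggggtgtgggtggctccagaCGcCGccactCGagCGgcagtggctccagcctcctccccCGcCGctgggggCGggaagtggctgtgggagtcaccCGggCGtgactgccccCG
Reln: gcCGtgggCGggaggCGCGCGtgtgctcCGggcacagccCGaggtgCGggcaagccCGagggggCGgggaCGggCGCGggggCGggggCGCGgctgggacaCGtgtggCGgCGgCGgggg
The whole window held 4 CG in Vip, 24 in Npy and 47 in Reln, beside a median of 7 over 32851 windows. Of those windows, 31.4% had fewer CG than that of Vip, 80% fewer than that of Npy and 98.6% fewer than that of Reln. The windows of Sst, Gad2, Slc32a1 and Gad1 held 13, 14, 17 and 21 CG, and those of Pvalb 5 and 25. Among genes with a window, those that rose held 4 (Vip), 13 (Sst) and 17 (Slc32a1) CG, and Reln, the only gene that fell, held 47. The windows of genes that passed no threshold held 5 to 25. With 1 gene that fell, a relation of CG number to direction was not tested.

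A cAMP response element, TGACGTCA, was found on either strand in the Sst window alone among these 9, and in 1.79% of all windows. Its first letters, TGACGTC, a search chosen after the sequences had been seen, were found in Sst and in Vip, and in 3.21% of all windows. The 30 bases around each match are shown with the match in capitals, from chr16:23890874-23890903 (minus strand) for Sst and chr10:5639128-5639157 (plus strand) for Vip. The Sst stretch overlaps 1 annotated exon and 1 RefSeq gene, and the Vip stretch overlaps 0 of either.
Sst: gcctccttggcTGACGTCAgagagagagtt
Vip: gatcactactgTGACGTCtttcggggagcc
TATAAA was found on either strand in the windows of Vip and Gad1 and in 13.6% of all windows. These matches describe the letters only, and no binding was measured in these files.

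Total counts ranged from 16273308 to 17522152 per library, and levels are given as CPM (counts scaled to library size after TMM adjustment). A count of 0 allows up to 3 counts in a library, a limit that covers counting error only. Ezh2, the targeted gene, fell from 23.1 ± 3.25 to 10.7 ± 1.77 CPM (SD, n = 2 per group; log2 fold change -1.11, SE 0.16, adjusted p = 3.26e-05 in edgeR). Transcripts of neurons were abundant in every library although the beads were raised against an astrocyte protein: the summed CPM of 15 pan-neuron genes was 8547 and 9267 in Ezh2 f/f against 10910 and 10880 in Ezh2 cKO, and that of 13 astrocyte genes was 939 and 958 in Ezh2 f/f against 3767 and 3407 in Ezh2 cKO. Of the 13 astrocyte genes, 11 rose and 0 fell at an adjusted p under 0.05 in edgeR, beside 34.7% and 33.6% of all genes tested. In bulk RNA, fewer interneurons and less RNA of a gene per interneuron cannot be told apart.

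Levels are first compared as FPKM, which the authors scaled to gene length and library size, so that genes can be set side by side. Sst, which encodes the peptide somatostatin, was the most abundant of the 10 in every library, with 244 and 203 FPKM in Ezh2 f/f against 346 and 334 in Ezh2 cKO. By mean FPKM it ranked number 162 of 29224 genes in Ezh2 f/f and number 84 in Ezh2 cKO. Npy, the gene of neuropeptide Y, followed with 138 and 120 FPKM in Ezh2 f/f against 121 and 117 in Ezh2 cKO. In Ezh2 f/f the order went on with Calb2, Slc32a1, Gad2, Gad1, Reln, Calb1 and Pvalb down to Vip, and no 2 neighbours in that order overlapped between libraries. In Ezh2 cKO, Calb2 (39.9 ± 1.69 FPKM, SD, n = 2) and Slc32a1 (33.3 ± 3.15) came next, followed by Gad2 (12.3 ± 0.362), Calb1 (12.3 ± 1.71) and Gad1 (10.7 ± 0.846), whose libraries overlapped from neighbour to neighbour. Reln (4.39 ± 0.251 FPKM) and Vip (4.19 ± 0.437 FPKM) also overlapped there, and Pvalb was last with 0.821 ± 0.142 FPKM.

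**Figure D1:**
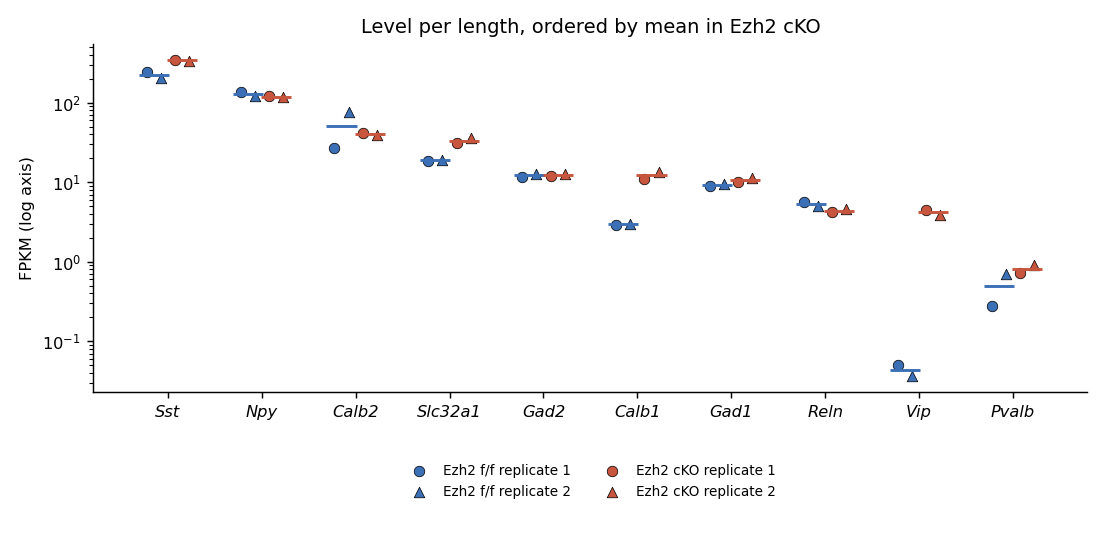
FPKM of the 10 interneuron genes on a log axis, ordered by their mean in Ezh2 cKO; each point is 1 library, circles are replicate 1, triangles replicate 2, and horizontal bars are group means (n = 2). Sst and Npy lie at or above 117 FPKM in every library, the Vip points of Ezh2 f/f lie at 0.0503 and 0.0361 FPKM against 4.50 and 3.88 in Ezh2 cKO, and the 2 Calb2 points of Ezh2 f/f lie on either side of those of Ezh2 cKO.

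All 10 genes passed the filter on low counts. At an adjusted p under 0.05 in edgeR's quasi-likelihood test, 4 of the 10 were higher in Ezh2 cKO (Vip, Calb1, Slc32a1, Sst), beside 34.7% of the 16793 genes tested, and 1 was lower (Reln), beside 33.6%. The other 5 (Gad1, Gad2, Npy, Pvalb, Calb2) did not pass, and at an unadjusted p under 0.05 the count was also 5 of 10. Calls in either direction thus took 5 of the 10 genes, beside 68.4% of all genes. With only 10 genes, a difference from that share was not tested. For 7 of the 10 genes the CPM ranges of the groups did not overlap, which held for 84.3% of all genes. Of these, 5 were higher in both (42.8% of all genes) and 2 were lower in both (41.5%). The median log2 fold change of the 10 genes was 0.33, beside 0.02 over all genes tested.

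**Figure D2:**
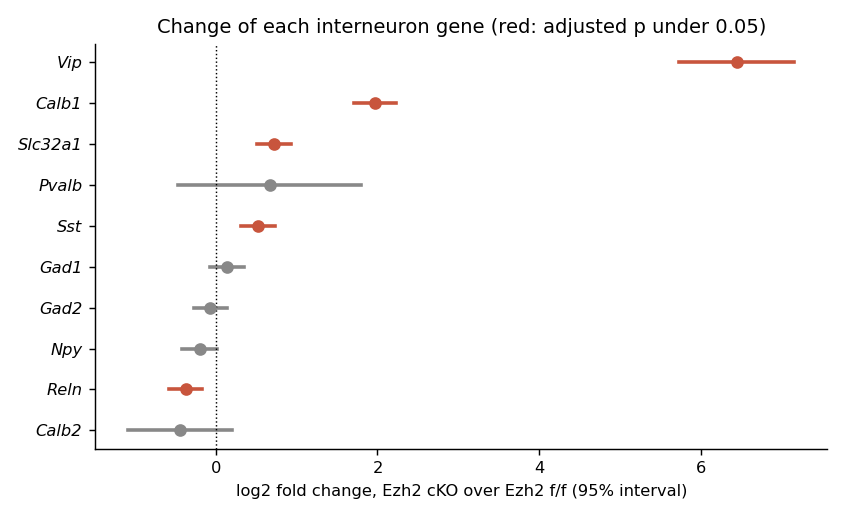
Log2 fold change of each gene from edgeR with its 95% interval; red marks an adjusted p under 0.05. Vip stands at 6.44 and Calb1 at 1.97, Slc32a1 and Sst lie between 0.5 and 0.8, Reln lies at -0.37, and the intervals of the 5 grey genes include 0.

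The genes for GABA synthesis did not pass the test, whereas the gene for its vesicular packaging rose. Gad1 (ENSMUSG00000070880, chromosome 2) had 69.32 and 74.97 CPM in Ezh2 f/f against 75.9 and 83.1 CPM in Ezh2 cKO. The groups did not overlap but lay close, with a log2 fold change of 0.14 (95% interval -0.07 to 0.35, adjusted p = 0.219). Gad2 (ENSMUSG00000026787, chromosome 2) had 70.2 and 77.3 CPM in Ezh2 f/f against 69.7 and 71.2 CPM in Ezh2 cKO, where the groups overlapped. Its log2 fold change was -0.07 (95% interval -0.27 to 0.14, adjusted p = 0.553), and its sign turned under other scalings. The upper bounds of both intervals lie below the lower bound for Slc32a1, 0.51. Slc32a1 (ENSMUSG00000037771, chromosome 2) had 53.6 and 55.8 CPM in Ezh2 f/f against 85.3 and 95.5 CPM in Ezh2 cKO. Both Ezh2 cKO libraries were higher, by a mean of 1.65-fold (log2 fold change 0.72, SE 0.10, adjusted p = 1.62e-05). Gad1os, Gm14205 and Gm16110, long non-coding genes on the other strand of Gad1, Slc32a1 and Reln, had at most 5 counts in any library, few beside the counts of these genes.

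Among the peptide genes, Vip was nearly uncounted in Ezh2 f/f and readily counted in Ezh2 cKO, Sst rose modestly, and Npy did not pass. Vip (ENSMUSG00000019772, chromosome 10) encodes vasoactive intestinal peptide, which marks interneurons that mainly contact other interneurons. Its counts were 3 and 2 in Ezh2 f/f against 265 and 220 in Ezh2 cKO, or 0.176 and 0.127 against 15.03 and 12.7 CPM. Both Ezh2 f/f libraries were at or under the limit of 3 counts, and the ratio of the summed, scaled counts was 91.0 (exact 95% interval 38.7 to 282, counting error only). edgeR gave an adjusted p of 1.43e-09, with a fitted log2 fold change of 6.44 that depends on the prior count. On the log2(FPKM + 1) scale, which understates low genes, the log2 difference was 2.31 (limma, adjusted p = 2.56e-05).

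Sst (ENSMUSG00000004366, chromosome 16) had 180 and 152 CPM in Ezh2 f/f against 245 and 232 CPM in Ezh2 cKO. The groups did not overlap, and the means differed 1.44-fold (log2 fold change 0.52, SE 0.10, adjusted p = 3.03e-04). Npy (ENSMUSG00000029819, chromosome 6) had 80.2 and 70.3 CPM in Ezh2 f/f against 67.4 and 63.6 CPM in Ezh2 cKO. Its Ezh2 cKO libraries were the lower ones, but the difference did not pass (log2 fold change -0.20, 95% interval -0.41 to 0.01, adjusted p = 0.0895). Npy was at -0.10 without Ezh2 f/f replicate 1 and at -0.31 without Ezh2 f/f replicate 2, each with 1 library left in Ezh2 f/f. Npy and Sst are both expressed by a class of interneuron with long-range axons, and here their intervals did not overlap.

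Of the calcium-binding protein genes, Calb1 alone passed. Calb1 (ENSMUSG00000028222, chromosome 4), the gene of calbindin, had 14.4 and 15.2 CPM in Ezh2 f/f against 52.6 and 62.9 CPM in Ezh2 cKO. Both Ezh2 cKO libraries were far above the others, with a 3.91-fold difference (log2 fold change 1.97, SE 0.12, adjusted p = 7.50e-09). Pvalb (ENSMUSG00000005716, chromosome 15), the gene of parvalbumin, which marks fast-spiking interneurons, was close to the limit of detection. It had 5 and 12 counts in Ezh2 f/f against 13 and 16 counts in Ezh2 cKO. The difference did not pass (log2 fold change 0.66, 95% interval -0.47 to 1.80, adjusted p = 0.277). Pvalb was at 0.12 without Ezh2 f/f replicate 1 and at 1.47 without Ezh2 f/f replicate 2, each with 1 library left in Ezh2 f/f.

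Calb2 (ENSMUSG00000003657, chromosome 8), the gene of calretinin, differed more within Ezh2 f/f than between the groups. It had 47.7 CPM in replicate 1 and 136 CPM in replicate 2 of Ezh2 f/f, and 70.4 and 64.9 CPM in Ezh2 cKO. The second Ezh2 f/f library held 2.85 times the level of the first, a difference of at least 2 times in that direction that 2.83% of tested genes shared. With all libraries the log2 fold change was -0.44 (SE 0.30, adjusted p = 0.205). Without Ezh2 f/f replicate 1 it was -1.01, and without Ezh2 f/f replicate 2 it was 0.49. The direction of Calb2 thus turned on which Ezh2 f/f library was kept. Such a fit leaves 1 library in Ezh2 f/f and no spread within that group, so no p-value is given for it. Zic1, Ebf3, Lhx1 and Lhx5, transcription factor genes of a list for Cajal-Retzius cells that are also expressed in diencephalic neurons, held 2.84, 3.02, 2.69 and 2.11 times as much in the second Ezh2 f/f library as in the first. These 4 were picked for that likeness from the 8 genes of the list, of which Nhlh2 (1.16) and Barhl2 (1.39) differed less and Trp73 (0.871) and Ndnf (0.62) were lower in the second library. Reln was also lower in the second library (0.904). The summed level of a list of hypothalamic neuron genes was 15.1 CPM in the first Ezh2 f/f library and 30.6 CPM in the second. Avp, picked from that list, gave 4.68 and 15.4 CPM. The part of cells of either list in the Calb2 values was not tested.

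Reln (ENSMUSG00000042453, chromosome 5) encodes reelin, a secreted protein that guides the layering of cortical neurons. It had 138 and 125 CPM in Ezh2 f/f against 98.4 and 104 CPM in Ezh2 cKO. Both Ezh2 cKO libraries were lower, and the gene fell by 0.37 on the log2 scale (SE 0.095, adjusted p = 0.00317). It did not pass with limma on log2(FPKM + 1), where the log2 difference was -0.24 (adjusted p = 0.0762). Of the 8 genes of the Cajal-Retzius list, 7 were lower in edgeR, beside 33.6% of all genes tested. The other, Ndnf, which is also an interneuron gene, was higher, beside 34.7%. The median log2 fold change of these 8 genes was -2.53. Their summed level was 78.5 and 154.5 CPM in Ezh2 f/f against 38.4 and 38.3 CPM in Ezh2 cKO, and none was at 0 in every library. Trp73, a gene that defines these cells, had a log2 fold change of -1.79, with 16.5 and 14.4 CPM in Ezh2 f/f against 4.48 and 4.44 CPM in Ezh2 cKO. The part of such cells in the fall of Reln was not tested.

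**Figure D3:**
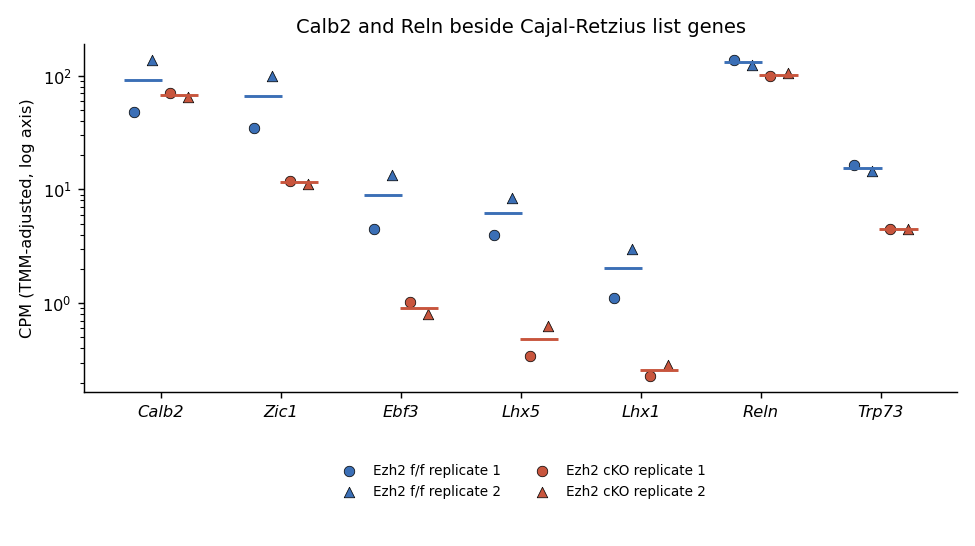
CPM on a log axis of Calb2 and Reln beside 5 genes of the Cajal-Retzius list; each point is 1 library and horizontal bars are group means (n = 2). Calb2, Zic1, Ebf3, Lhx5 and Lhx1 share a higher point in Ezh2 f/f replicate 2, which Reln and Trp73 do not, and the 5 list genes lie lower in both Ezh2 cKO libraries.

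Because Gad1 and Gad2 together moved by only 0.04 on the log2 scale between the groups (140 and 152 CPM in Ezh2 f/f against 146 and 154 CPM in Ezh2 cKO), the other genes were also expressed relative to their sum within each library. As that sum hardly moved, the differences nearly repeat the log2 fold changes above and are no separate evidence. Striatal neurons also express Gad1 and Gad2, so the sum is not private to interneurons. Relative to it, the Ezh2 cKO libraries were both higher for Vip (difference in log2 ratio 6.49), Calb1 (1.92), Slc32a1 (0.68) and Sst (0.49). Both were also higher for Pvalb, whose Ezh2 f/f values spread by an SD of 0.89 around a difference of 0.76. Reln was lower in both (-0.41), and the libraries overlapped for Npy (-0.24) and Calb2 (-0.29). No exact permutation test of 2 libraries against 2 can go below p = 0.333, so these ratios are given without a call. Relative to the summed CPM of the 15 pan-neuron genes, both Ezh2 cKO libraries were again higher for Vip (6.24), Calb1 (1.67), Slc32a1 (0.43) and Sst (0.24). Both were lower for Gad1 (-0.15), Gad2 (-0.36), Npy (-0.49) and Reln (-0.66). Pvalb (0.51) and Calb2 (-0.55) overlapped on that scale. This sum weights abundant genes such as Tubb3, which fell from a mean of 3617 CPM in Ezh2 f/f to 2208 CPM in Ezh2 cKO. The sum moved by 0.29 on the log2 scale, whereas the median log2 fold change of the 15 genes was 1.33. The log2 fold changes of Slc32a1 (0.72) and Sst (0.52) lay below that median, and those of Vip (6.44) and Calb1 (1.97) above it.

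Further genes of the interneuron programme were taken from lists written with earlier results of these data known. Their calls are set beside 33.6% of all genes tested that fell and 34.7% that rose. Transcription factors of interneuron birth and migration were mostly lower in Ezh2 cKO: of 20 tested, 14 fell and 4 rose at an adjusted p under 0.05, with a median log2 fold change of -0.88. The largest falls were those of Lhx8 (-3.75), Dlx2 (-2.41) and Nkx2-1 (-2.11), regulators of ventral forebrain progenitors and their young progeny. Dlx2 had 54.9 and 44.7 CPM in Ezh2 f/f against 8.56 and 10.2 CPM in Ezh2 cKO. Lhx6, which is kept in interneurons that express Sst or Pvalb, fell from 122 ± 20.9 to 36.6 ± 2.62 CPM (SD, n = 2 per group; log2 fold change -1.74, adjusted p = 2.61e-08), while Sst itself rose. The factors that rose were Satb1 (0.98), Adarb2 (0.64; an RNA-binding protein of caudal interneurons rather than a transcription factor), Sox6 (0.63) and Etv1 (0.43). Maf and Npas1 did not pass.

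Of 13 genes for interneuron migration, 7 fell and 4 rose, beside 33.6% and 34.7% of all genes tested, with a list median of -0.71. The guidance receptor gene Nrp2 (-1.58), the microtubule-associated Dcx of young neurons (-1.49) and the chemokine receptor gene Cxcr4 (-1.44) had the largest falls. Met (2.08), Erbb4 (0.88) and Epha4 (0.53), all receptor tyrosine kinase genes, had the largest rises. Dcx and the guidance receptors are not private to interneurons.

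Genes listed for other interneuron classes or their later properties moved mainly the other way. Of 25 listed, 24 were tested, and 19 rose and 2 fell, beside 34.7% and 33.6% of all genes tested. The median log2 fold change of the list was 1.46. Rxfp1, a relaxin receptor gene, rose from 0.840 ± 0.468 to 26.2 ± 0.606 CPM (SD, n = 2 each; log2 fold change 4.93, adjusted p = 1.13e-09). Lamp5, a marker of neurogliaform interneurons, rose from 2.43 ± 0.617 to 51.0 ± 2.29 CPM (SD, n = 2 each; log2 fold change 4.40, adjusted p = 1.34e-10). Crh, the gene of corticotropin-releasing hormone, which many Vip interneurons also express, rose by a log2 fold change of 3.19 (SE 0.35). Htr3a, a serotonin receptor gene that marks the interneurons of caudal origin to which Vip cells belong, fell instead (log2 fold change -1.27, adjusted p = 2.87e-05), as did the potassium channel gene Kcnc1 (-0.51). Sncg, Cnr1 and Nxph1 did not pass, and Chat was not tested. In the same bulk RNA, 9 of 12 striatal neuron genes rose and 3 fell, and 12 of 15 pan-neuron genes rose and 2 fell. Of 14 excitatory neuron genes, 4 rose and 5 fell. Which cells gave the rises of the interneuron list was not tested.

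**Figure D4:**
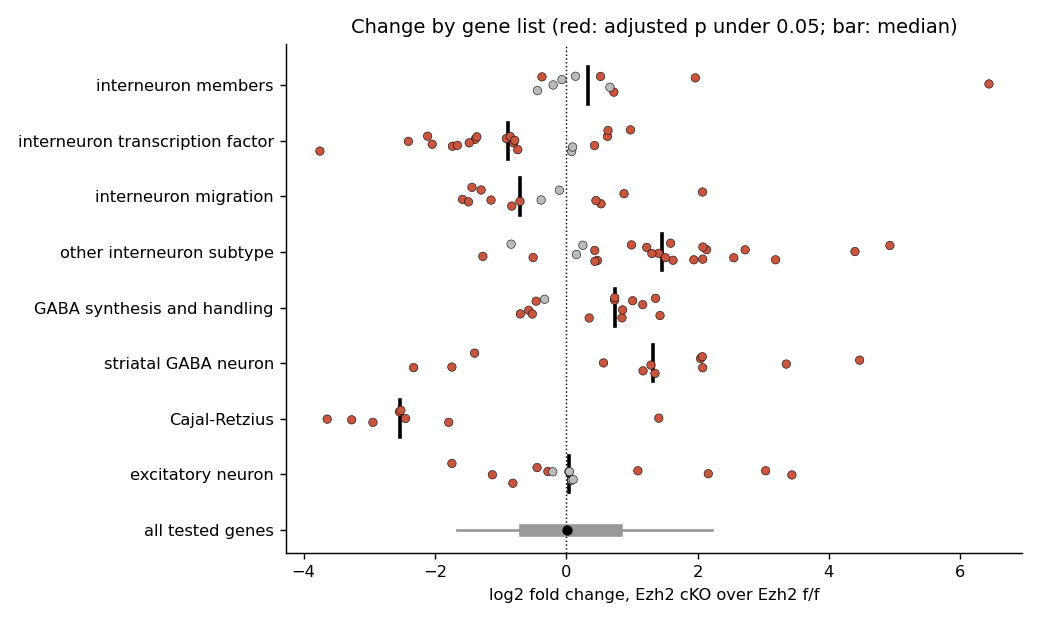
Log2 fold change of each tested gene in the lists shown (red, adjusted p under 0.05; black bar, list median); the lowest line shows all 16793 tested genes, with the median as a dot, the span between the quartiles as a thick line and that of most genes as a thin line. The transcription factor and Cajal-Retzius lists lie mostly left of 0 (medians -0.88 and -2.53) and the other interneuron subtype list mostly right of it (median 1.46), with the 10 interneuron genes between them (0.33).

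Genes that handle GABA outside its synthesis included 9 that rose and 4 that fell of 14 tested, beside 34.7% and 33.6% of all genes. The list median was 0.74. Those that rose included Slc12a5 (1.43), whose chloride exporter sets the inhibitory action of GABA in mature neurons, and Slc38a5 (1.16), a glutamine transporter gene. The largest falls were those of Slc38a1 (-0.70), which supplies glutamine to interneurons, Slc6a13 (-0.57) and Slc38a2 (-0.52). Astrocytes and neurons share several of these genes.

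Markers of other neurons that share these genes were also counted, beside 34.7% of all genes tested that rose and 33.6% that fell. Of 12 genes of striatal projection neurons, which also express Gad1, Gad2, Slc32a1 and Calb1, 9 rose and 3 fell, with a median of 1.32. Their summed level was 398 and 375 CPM in Ezh2 f/f against 893 and 1046 CPM in Ezh2 cKO, and none was at 0 in every library. Those that rose included Scn4b (4.47) and Gpr6 (3.35), and the falls were those of Isl1 (-2.33), Ebf1 (-1.74) and Six3 (-1.40), transcription factors of young striatal neurons. Of 12 hypothalamic genes, whose tissue also expresses Npy and Sst, 5 were tested, with 3 higher and 2 lower, and their summed level was 15.1 and 30.6 CPM in Ezh2 f/f against 16.68 and 11.95 CPM in Ezh2 cKO. Avp, the vasopressin gene, gave 80 and 242 counts in Ezh2 f/f against 0 in each Ezh2 cKO library. Of 14 excitatory neuron genes 4 rose and 5 fell, with a median of 0.04. Their summed level was 1655 and 1468 CPM in Ezh2 f/f against 4284 and 4029 CPM in Ezh2 cKO. This sum was carried by Slc17a7 (mean 125 CPM in Ezh2 f/f, 1353 CPM in Ezh2 cKO) and Camk2a (250 and 2049 CPM). Neurod2, in contrast, fell from a mean of 311 to 93.0 CPM. Of the 15 pan-neuron genes 12 rose and 2 fell. The part of these cells in the values of the interneuron genes was not tested.

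Glial markers also differed between the groups, and their calls are set beside 34.7% of all genes tested that rose and 33.6% that fell. All 8 oligodendrocyte precursor genes rose (summed level 194 and 199 CPM in Ezh2 f/f against 646 and 575 CPM in Ezh2 cKO), as did the 7 tested oligodendrocyte genes and all 9 microglia genes. Of 8 endothelial genes 3 rose, 1 fell and 4 did not pass, beside 68.4% of all genes called in either direction. Their median log2 fold change was 0.09.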

How the data were processed

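RNA of bead-sorted cortical cells was sequenced from 2 libraries of each genotype, Ezh2 f/f and Ezh2 cKO. Groups follow the sample titles (W and C), read as control and knockout from the WT and CKO column names of the deposited tables and the study's methods. The authors deposited raw read counts per gene, without normalization, and FPKM values, which they scaled to gene length and library size; the aligner and counter are listed in the submitters' processing notes as Bowtie2 2.2.3, TopHat2 2.0.12 and HTSeq 0.6.0, with mm9 as the build, and strand use is not given in the sources used here. The deposited gene positions differ from GRCm38 and their build could not be settled, so they are not printed; printed coordinates are those of RefSeq promoters on GRCm38.p6. The authors' own comparison (means, fold changes and p-values) was not used, and 0 sample columns were left out.

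Counts were filtered with filterByExpr, normalized by TMM (factors 0.967 to 1.04) and tested with edgeR 4.0.16 (R 4.3.3; quasi-likelihood, group as the only term, Benjamini-Hochberg adjustment over 16793 genes). CPM are scaled to TMM-adjusted library sizes. The scripts were tested on simulated data. Alternatives were DESeq2 1.42.0, its size factors, other filters (none, or a mean of at least 50 counts), limma 3.58.1 on log2(FPKM + 1) and log2(FPKM + 0.1) for genes with at least 1 FPKM in at least 2 libraries, a block for replicate number, leaving out each library and, added after the data had been seen, no scaling beyond library size. The genes and lists were chosen with earlier results of these data known. Named genes are the 10 interneuron genes, Ezh2, and from other lists the defining markers and up to 3 genes with the largest rise and fall among those called; Etv1, Maf, Npas1, Sncg, Cnr1 and Nxph1 complete small counts, and Avp and the Cajal-Retzius genes set beside Calb2 were singled out, after their values had been seen. Some genes that this rule names are not reported here.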

Additional observations from a re-analysis of the deposited data

How the results depend on the processing

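The 4 higher genes (Vip, Calb1, Slc32a1 and Sst) passed under every alternative that kept all 4 libraries. Over all alternatives, those with a library left out included, their log2 fold changes were 2.31 to 6.69, 1.74 to 2.09, 0.64 to 0.81 and 0.39 to 0.65. A fit with a library left out has 1 library in a group and no spread within it, so its calls are not reported here. The number of lower genes was 1 in edgeR, and 0 with limma on log2(FPKM + 1) and with limma on log2(FPKM + 0.1). Reln was at -0.28 with limma on log2(FPKM + 0.1) (adjusted p = 0.0735). With the replicate number as a block, 2 genes were lower, Reln and Calb2 (log2 fold change -0.27, adjusted p = 0.0349), and 4 were higher; the labels do not say what a number marks, and deviations of same-numbered libraries correlated with r = 0.134 across genes (0.244 over those with a mean of at least 50 counts). The sign of Gad2 turned, to 0.018 with no scaling beyond library size, 0.0172 with limma on log2(FPKM + 1) and 0.0185 with limma on log2(FPKM + 0.1). Calb2 was at -1.01 without Ezh2 f/f replicate 1 and turned to 0.49 without Ezh2 f/f replicate 2. Among the lists, the migration genes that rose numbered 2 to 4 when a library was left out (2 without Ezh2 cKO replicate 2). Of the hypothalamic genes, 1 rose under DESeq2, and 1 rose and 1 fell with a mean of at least 50 counts, which leaves fewer genes to test; with a library left out 1 to 3 rose (1 without replicate 1 of either group). The Cajal-Retzius genes that fell numbered 4 under each limma setting. The endothelial gene that fell was lost (0) under DESeq2, no scaling, no filter, a mean of at least 50 counts, each limma setting and the block. The causes were not tested. With all libraries kept, the other counts stayed within 1.5 times. With 5 to 16 counts, the interval of Pvalb takes in 0 as well as the changes of Sst and Slc32a1.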
